A study of Homo sapiens with 16 samples.

Results

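The kindlins are 3 genes, FERMT1 (kindlin-1), FERMT2 (kindlin-2) and FERMT3 (kindlin-3), of the 60603 genes in the deposited count table, and were taken by symbol. FERMT1 was chosen by its fall in counts in U-937 cells given both agents against the solvent. FERMT2 and FERMT3 were added because they complete the family, whatever their values. For FERMT1, the U-937 comparisons that use the solvent or combination libraries and all comparisons between the lines are therefore given as values, with no test.

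Kindlins are adaptor proteins that bind the cytoplasmic tails of integrin beta subunits. Together with talin they switch integrins from a resting to a ligand-binding state, and they link integrins to the actin cytoskeleton through ILK, the PINCH and parvin proteins and paxillin. Kindlin-3 is the form known from blood cells, where its loss causes leukocyte adhesion deficiency type III. Kindlin-1 is known from epithelia, where its loss causes Kindler syndrome, and kindlin-2 is widely expressed in adherent tissues.

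RNA was measured in 16 libraries of 2 human acute myeloid leukaemia lines. SKNO-1 carries the RUNX1-RUNX1T1 fusion and was grown with the cytokine GM-CSF at 10 ng/mL. U-937 is a monocyte-like line, for which the growth conditions name no such addition. For 24 h the cells of each line received DMSO as solvent, ATRA (all-trans retinoic acid, which activates retinoic acid receptors), Corin (a CoREST inhibitor that blocks the histone deacetylases HDAC1 and HDAC2 as well as the demethylase LSD1) or both agents (the combination). Each agent was used at 0.1 µM, and each of the 8 groups had 2 libraries. The labels do not say whether the 2 libraries of a group came from separate cultures, so the p-values measure only the spread between these libraries, which may be technical.

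SKNO-1 libraries held 32.8 to 37.8 M estimated counts and U-937 libraries 28.4 to 37.6 M. All 8 myeloid markers examined (SPI1, CD33, ANPEP, MPO, CD68, LYZ, CSF1R and PTPRC) had counts in the data, with a summed level of 856 to 1183 TPM (transcript abundance scaled by length and library total) in SKNO-1 and 355 to 1950 TPM in U-937. The lines differed in which markers made up these sums. MPO had group means of 523 to 1030 TPM in SKNO-1 but 0.15 TPM or less in U-937. LYZ had 186 to 1684 TPM in U-937 and 31.0 to 228 TPM in SKNO-1, so its ranges overlap. CSF1R was low with DMSO in both lines, at 0.08 TPM in SKNO-1 and 0.33 TPM in U-937. With the combination it had 2.31 and 7.54 TPM, respectively. The 7 epithelial markers summed to 0.28 TPM or less in every library, with 6 counts of EPCAM and 1 of CDH1 over all 16 libraries. HOXA9 and HOXA10 were at 0 counts in every SKNO-1 library. The 2 SKNO-1 DMSO libraries stood apart: their log2 difference had an SD of 0.361 over 9354 well-expressed genes, against 0.108 to 0.208 in the other groups, and correlated with GC content across genes (Pearson r = 0.796; genes are not independent replicates). Between them FERMT3, whose longest transcript is 62.0% GC, differed by 0.90 on the log2 scale and FERMT1, at 45.1% GC, by -0.04, so FERMT3 results against SKNO-1 DMSO are given with and without each of these libraries. GC trends were not confined to this group. The correlation was 0.578 between the U-937 DMSO libraries, 0.390 for the U-937 combination and -0.423 for SKNO-1 ATRA, and -0.160 to 0.109 in the rest. FERMT3 differed by 0.18 between the U-937 DMSO libraries.

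FERMT1 lies on the minus strand of chromosome 20 (hg38, GENCODE release 44, positions 6074845 to 6123214), FERMT2 on the minus strand of chromosome 14 (52857268 to 52952435) and FERMT3 on the plus strand of chromosome 11 (64205926 to 64223896). FERMT1 overlaps no other annotated gene. FERMT3 overlaps the end of TRPT1 on the other strand, which had 4040 counts over the 16 libraries, so reads in that overlap cannot be assigned if strand was not used in counting. FERMT2 overlaps 3 genes of the other strand, which had 1, 2 and 49 counts.

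In U-937, FERMT1 was high with DMSO and nearly absent with both agents. The estimated counts of its 2 libraries were 1857 and 1754 with DMSO, 475.95 and 404 with ATRA, 1419 and 1035 with Corin, and 13 and 25 with the combination. As CPM, counts per 1 M on scaled library totals, these are 58.8 ± 0.964, 12.7 ± 0.611, 35.8 ± 2.80 and 0.622 ± 0.335 (mean ± SD, n = 2 each). No 2 of these 4 groups overlapped, and the order was DMSO, Corin, ATRA, combination. In this bulk measurement fewer cells expressing a gene and less RNA per cell cannot be told apart.

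The fitted level of FERMT1 in U-937 was 4.63-fold lower with ATRA than with DMSO (log2 -2.21, SE 0.129) and 1.64-fold lower with Corin (log2 -0.72, SE 0.121). With the combination it was 97.1-fold lower (log2 -6.60, SE 0.192). This value rests on 38 counts in 2 libraries that differ by 1.05 on the log2 scale, and it was -7.27 without the second combination library and -6.10 without the first. Against the single agents the combination was 21.0-fold lower than ATRA (log2 -4.39, SE 0.206) and 59.1-fold lower than Corin (log2 -5.88, SE 0.194). The 2 single effects add up to less than the combined one, which went beyond their sum by -3.67 (SE 0.251) on the log2 scale, a further 12.8-fold. These values belong to the contrast by which FERMT1 was picked and are a description.

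The comparison of the single agents in U-937 uses neither of the groups by which FERMT1 was picked and was tested. FERMT1 was 2.82-fold higher with Corin than with ATRA (log2 1.495, SE 0.128, adjusted p = 1.86e-09). This and every adjusted p below comes from the quasi-likelihood test of edgeR, adjusted over all genes by the Benjamini-Hochberg method, unless another tool is named. In that comparison 40.1% of the genes tested were called, that is, had an adjusted p under 0.05.

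**Figure D1:**
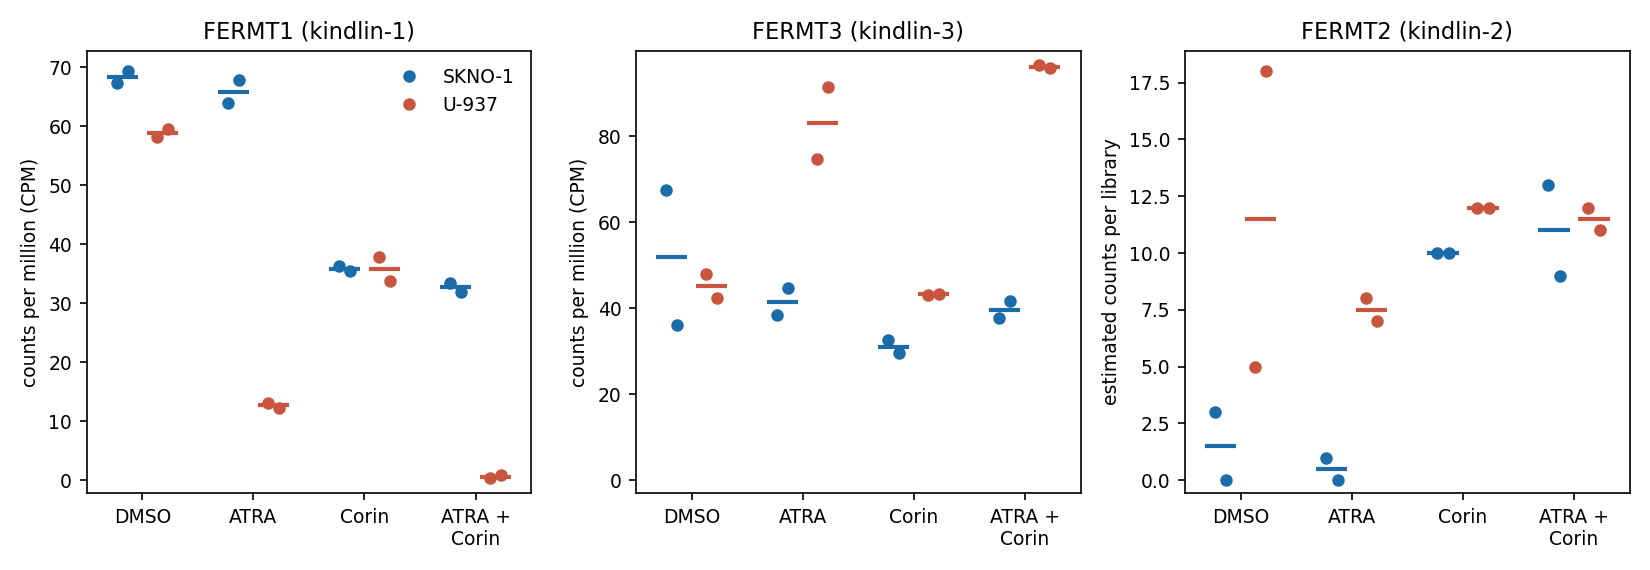
Level of each kindlin gene in each library (points) and group mean (lines), by treatment, for SKNO-1 (blue) and U-937 (red). FERMT1 and FERMT3 are in CPM and FERMT2, which had 18 counts or fewer per library, in estimated counts. FERMT1 ranges from 58.8 CPM to 0.622 CPM in U-937 and from 68.3 to 32.7 CPM in SKNO-1, while FERMT3 is highest in U-937 with ATRA or the combination.

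SKNO-1 gave an independent measurement of FERMT1. There it fell with Corin and with the combination, and no change with ATRA passed the test. The estimated counts were 2328 and 2633 with DMSO, 2132 and 2508 with ATRA, 1273 and 1204 with Corin, and 1074 and 1064 with the combination. The means were 68.3 ± 1.41, 65.9 ± 2.70, 35.8 ± 0.636 and 32.7 ± 1.09 CPM (SD, n = 2 each). The DMSO and ATRA libraries overlap, and both lie above all 4 libraries that had received Corin.

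FERMT1 fell 1.91-fold with Corin in SKNO-1 (log2 -0.93, SE 0.0674, adjusted p = 5.07e-05), where 37.9% of all genes tested were called. It fell 2.09-fold with the combination (log2 -1.06, SE 0.0678, adjusted p = 1.91e-05), where 46.7% were called. Against ATRA alone it was lower with Corin (log2 -0.88, SE 0.0675, adjusted p = 4.51e-05; 42.0% of genes called) and with the combination (log2 -1.01, SE 0.0678, adjusted p = 2.71e-05; 44.8% called). The other comparisons did not pass. ATRA against DMSO gave -0.05 (SE 0.0662, adjusted p = 0.778), with 6.76% of genes called. The combination against Corin gave -0.13 (SE 0.0681, adjusted p = 0.228), with 10.4% called. The effect beyond additivity was -0.08 (SE 0.0950, adjusted p = 0.713), with 0.463% called. In the authors' deposited table, made with DESeq2, FERMT1 in SKNO-1 had a log2 change of -0.96 with Corin and -1.13 with the combination.

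Between the lines FERMT1 is described only. Only SKNO-1 was grown with GM-CSF per the growth conditions, so in every comparison between lines here line and cytokine cannot be told apart. With DMSO it was 0.34 lower on the log2 scale in U-937 than in SKNO-1 (difference -0.34, SE 0.112). The effect of Corin differed by 0.21 (SE 0.161). The effects of ATRA and of the combination were lower in U-937 by -2.12 (SE 0.164) and -5.49 (SE 0.221).

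FERMT3, the kindlin of blood cells, moved the other way in U-937. Its counts there were 1531 and 1248 with DMSO, 2713 and 3011 with ATRA, 1622 and 1330 with Corin, and 3263 and 2790 with the combination. The means were 45.1 ± 3.96, 83.1 ± 11.7, 43.3 ± 0.189 and 96.2 ± 0.494 CPM (SD, n = 2 each). The 4 libraries that had received ATRA lie above the 4 that had not, and the DMSO and Corin libraries overlap.

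FERMT3 rose 1.84-fold with ATRA in U-937 (log2 0.88, SE 0.107, adjusted p = 4.76e-07), where 41.8% of genes tested were called. It rose 2.13-fold with the combination (log2 1.09, SE 0.108, adjusted p = 4.14e-09), where 65.3% were called. No change with Corin passed the test (log2 -0.06, SE 0.108, adjusted p = 0.783; 12.9% of genes called). The combination was above Corin (log2 1.15, SE 0.108, adjusted p = 2.11e-09; 60.5% called) but the difference from ATRA did not pass (log2 0.21, SE 0.105, adjusted p = 0.104; 47.4% called). With GC trends removed that last difference was 0.42 (adjusted p = 0.000598), and without the second ATRA library it was 0.37 (adjusted p = 0.0385). Corin was below ATRA by -0.94 (SE 0.107, adjusted p = 1.92e-07). The effect beyond additivity was 0.27 (SE 0.151, adjusted p = 0.216; 23.4% called), and 0.63 with GC trends removed (adjusted p = 0.00107).

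In SKNO-1, FERMT3 had counts of 2338 and 1374 with DMSO, 1284 and 1651 with ATRA, 1142 and 1004 with Corin, and 1208 and 1392 with the combination. The means were 51.9 ± 22.2, 41.6 ± 4.31, 31.0 ± 2.15 and 39.7 ± 2.91 CPM (SD, n = 2 each). The DMSO libraries, at 67.6 and 36.2 CPM, span the ATRA and combination libraries, and the Corin libraries, at 32.5 and 29.5 CPM, lie below all others.

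FERMT3 was 1.67-fold lower with Corin than with DMSO in SKNO-1 (log2 -0.74, SE 0.249, adjusted p = 0.0478), just past the threshold. Without the first DMSO library the difference was -0.25 (adjusted p = 0.0451), and without the second it was -1.14 (adjusted p = 1.54e-07). The call was lost when either library of the ATRA, Corin or combination group was left out (adjusted p 0.0681 to 0.217). The authors' deposited table gives -0.77 with an adjusted p of 0.0182. ATRA gave -0.32 (SE 0.246, adjusted p = 0.595) and the combination -0.38 (SE 0.247, adjusted p = 0.239), and neither passed. Without the first DMSO library these were 0.16 and 0.12, and without the second -0.74 (adjusted p = 3.39e-05) and -0.78 (adjusted p = 6.01e-06). The effect beyond additivity was 0.67 (SE 0.351, adjusted p = 0.410), which was 0.21 without the first DMSO library (adjusted p = 0.404) and 1.11 without the second (adjusted p = 1.11e-05). The direction of FERMT3 with ATRA or the combination in SKNO-1 thus depends on which DMSO library is kept.

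The lines, which also differ in GM-CSF, differed in how FERMT3 responded. The effect of ATRA on the log2 scale was 1.23 higher in U-937 than in SKNO-1 (SE 0.299, adjusted p = 0.0124), where 19.4% of genes tested were called, and that of the combination 1.51 higher (SE 0.299, adjusted p = 0.00151), where 40.6% were called. Without the first SKNO-1 DMSO library these differences were 0.67 (adjusted p = 0.00210) and 1.00 (adjusted p = 7.41e-06), and without the second 1.56 (adjusted p = 2.94e-08) and 1.90 (adjusted p = 2.16e-10). The ATRA difference no longer passed without the first SKNO-1 ATRA library (adjusted p = 0.0850), the second U-937 DMSO library (0.0857) or the second U-937 ATRA library (0.0772). The effect of Corin differed by 0.67 (SE 0.301, adjusted p = 0.185; 12.8% called), which was 0.16 and 1.08 without the first and the second SKNO-1 DMSO library (the latter with an adjusted p of 1.498e-05). With DMSO the level in U-937 was -0.32 against SKNO-1 (SE 0.211, adjusted p = 0.207; 64.8% called), 0.23 without the first SKNO-1 DMSO library (adjusted p = 0.102) and -0.67 without the second (adjusted p = 2.32e-05).

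**Figure D2:**
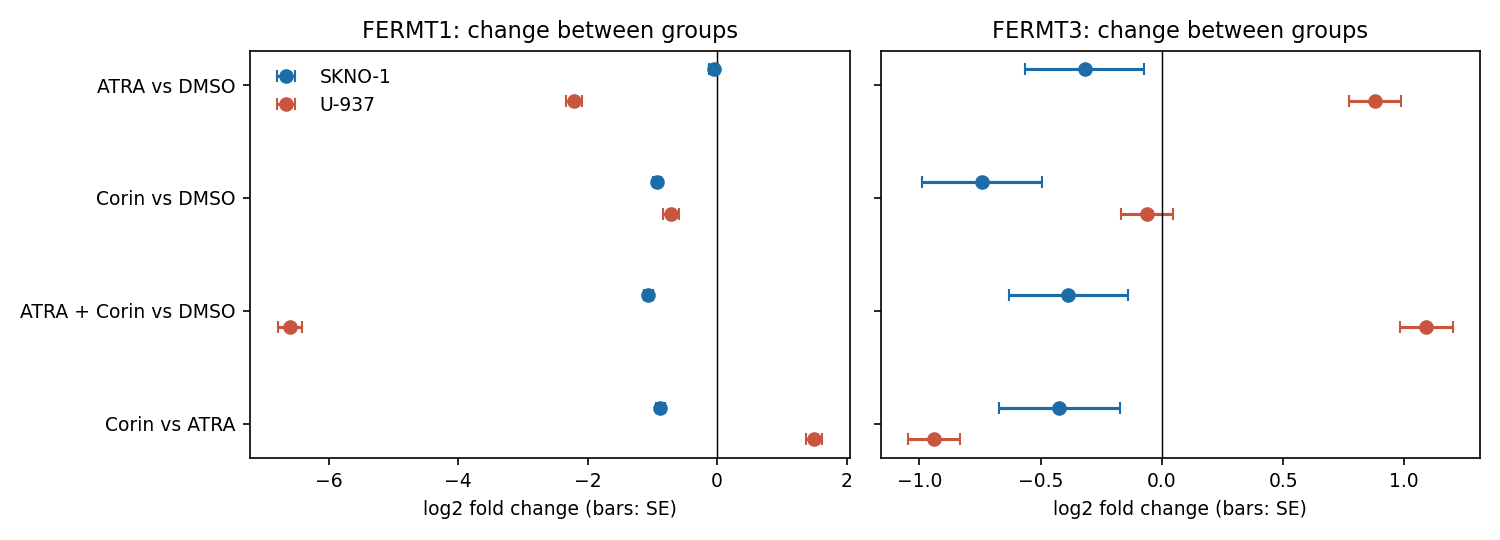
Log2 fold change of FERMT1 (left) and FERMT3 (right) between treatment groups in SKNO-1 (blue) and U-937 (red), with bars of 1 standard error, on x axes of different width. In U-937 with the combination FERMT1 is at -6.60 and FERMT3 at 1.09, and the U-937 values of FERMT1 against DMSO are a description without a test.

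FERMT2 was barely detected. Its counts were 3 and 0 in the DMSO libraries of SKNO-1, 1 and 0 with ATRA, 10 and 10 with Corin and 13 and 9 with the combination. In U-937 they were 5 and 18, 8 and 7, 12 and 12, and 12 and 11. In SKNO-1 all 4 libraries that had received Corin lie above all 4 that had not, whereas in U-937 the DMSO libraries enclose all others.

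FERMT2 entered the SKNO-1 fit only because of its counts in the Corin and combination groups, so a difference there was built in. The 6 mesenchymal markers examined summed to 0.18 to 0.74 TPM in SKNO-1, and their part in these counts was not tested. The ratio of scaled counts was 6.997 for Corin over DMSO (exact 95% interval 2.08 to 36.8) and 8.13 for the combination over DMSO (2.44 to 42.4). Over ATRA, with its single count, the ratios were 20.4 (3.25 to 843) for Corin and 23.7 (3.82 to 976) for the combination. These intervals cover counting error only. These ratios are a description, and no test of them is given. In U-937 no FERMT2 change passed, with adjusted p = 0.330 for ATRA, 0.945 for Corin and 0.949 for the combination. The higher count in U-937 than in SKNO-1 with DMSO (log2 3.06, SE 0.912, adjusted p = 0.00645) was not called without the second U-937 DMSO library (1.82, adjusted p = 0.189) or the second SKNO-1 DMSO library (2.04, adjusted p = 0.0680). The effect of the combination on FERMT2 was -3.03 in U-937 against SKNO-1 (SE 1.15), which rests on the same SKNO-1 counts and is likewise a description.

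The composition of the family was compared per transcript length, as TPM. With DMSO, FERMT1 was 16.2 ± 5.38 TPM and FERMT3 23.3 ± 3.75 TPM in SKNO-1, and 13.7 ± 0.170 and 23.8 ± 3.55 TPM in U-937 (SD, n = 2), while FERMT2 stayed at 0.23 TPM or less in every group. FERMT1 thus held 40.8% ± 12.0 of the kindlin TPM in SKNO-1 and 36.4% ± 3.48 in U-937. The 2 SKNO-1 DMSO libraries, close in CPM for FERMT1, had 12.42 and 20.03 TPM of it, and FERMT1 shares of 32.3% and 49.3%.

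In U-937 the share of FERMT1 was 6.89% ± 1.86 with ATRA, 25.1% ± 2.91 with Corin and 0.273% ± 0.0930 with the combination (SD, n = 2). In the combination group FERMT2 held 0.228% and FERMT3 99.5%. The ratio of FERMT3 to FERMT1 went from 1.75 ± 0.282 with DMSO to 14.03 ± 4.04 with ATRA and 387 ± 132 with the combination. The share and the ratio with the combination are imprecise. They rest on FERMT1 at 0.09 and 0.12 TPM, from 13 and 25 counts, and the ratio was 481 and 294 in these 2 libraries. The summed kindlin TPM was 37.7 ± 3.14 with DMSO, against 41.7 ± 0.382 with ATRA, 31.4 ± 5.02 with Corin and 39.4 ± 5.67 with the combination, and the DMSO and combination libraries overlap.

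In SKNO-1 the summed kindlin TPM was 39.6 ± 1.58 with DMSO, against 33.8 ± 0.898 with ATRA, 22.6 ± 2.31 with Corin and 22.4 ± 1.67 with the combination, so both Corin groups lie below the other 2. FERMT1 still held 31.9% ± 3.29 with Corin and 27.1% ± 0.157 with the combination.

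**Figure D3:**
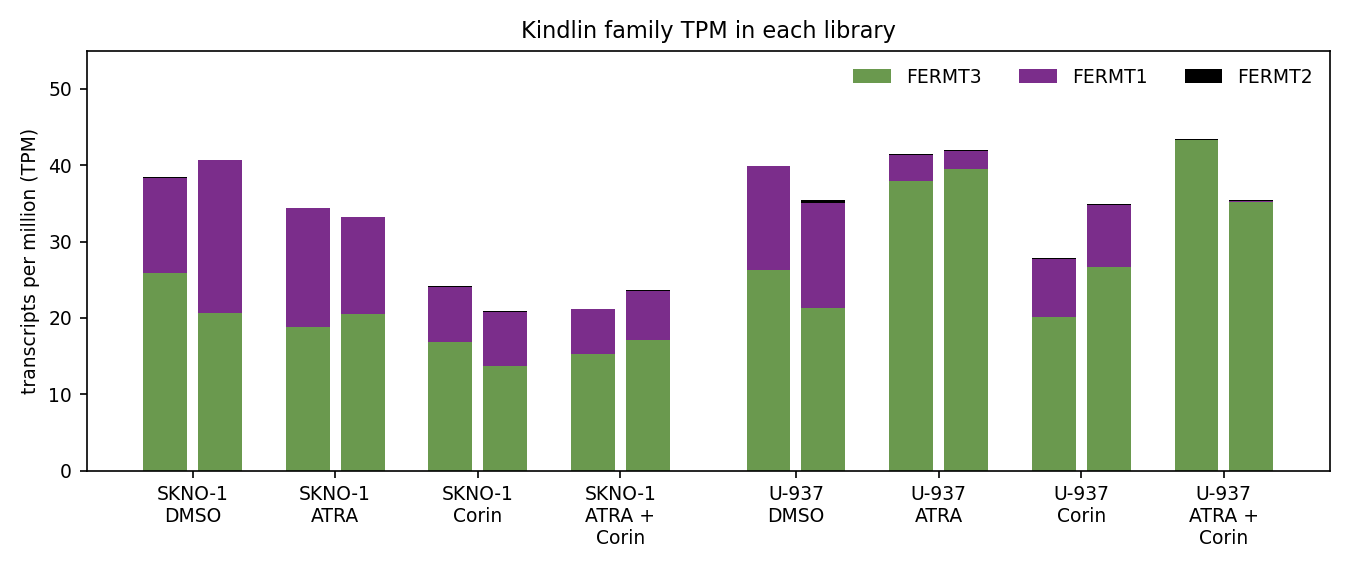
Stacked TPM of FERMT3 (green), FERMT1 (purple) and FERMT2 (black) in each of the 16 libraries, 2 bars per group. The FERMT1 block is at 0.12 TPM or less in the U-937 combination libraries, whose total, 43.45 and 35.43 TPM, overlaps that of the U-937 DMSO libraries.

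The partners of the kindlins were followed in 5 lists of 57 genes: integrin beta subunits, integrin alpha subunits, the talin and RAP1 arm of integrin activation, adaptors and kinases that act after kindlins, and tail binders that restrain activation. Of these, 48 were tested in SKNO-1 and 45 in U-937. In U-937, 35 rose and 4 fell with the combination, with a median log2 change of 0.99 against 0.03 over all genes, of which 33.1% were called higher and 32.2% lower. With ATRA 27 rose and 6 fell (median 0.61 against 0.02 over all genes, of which 21.7% were higher and 20.1% lower). With Corin 16 rose and 2 fell (median 0.19; of all genes 8.55% were higher and 4.40% were lower). In SKNO-1, 25 rose and 5 fell with the combination (median 0.44 against 0.05; 24.7% of all genes were higher and 22.0% lower). With Corin 23 rose and 6 fell there (median 0.27; 20.5% higher and 17.3% lower), and with ATRA 5 rose and 6 fell (median 0.06; 2.96% higher and 3.79% lower). Some listed genes passed the filter on low counts only through treated groups, so part of these rises was built in. Examples are ITGB7 in U-937 (6 and 8 counts with DMSO) and FLNC in SKNO-1 (3 and 2).

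Among the beta subunits, whose tails kindlins bind, all 4 tested in U-937 rose with the combination, where 33.1% of all genes were called higher. ITGB2, the beta subunit of the leukocyte integrins, had 47.42 and 39.04 TPM with DMSO and 142.62 and 125.44 TPM with the combination in U-937 (log2 2.09, adjusted p = 1.04e-13). In SKNO-1 it was much lower, at 1.33 and 1.51 TPM with DMSO, and rose with the combination to 5.65 and 6.39 TPM (log2 2.36, adjusted p = 6.72e-06). ITGB1, the most widely shared beta subunit, rose in U-937 with ATRA (log2 0.46, adjusted p = 0.00165) and the combination (log2 1.40, adjusted p = 1.07e-10), but no change passed in SKNO-1 (log2 -0.14 with the combination, adjusted p = 0.166). ITGB7, which pairs with alpha 4 in lymphocyte homing, rose with each agent and the combination in both lines, the latter by 6.80 in U-937, from 6 and 8 counts with DMSO, and by 4.74 in SKNO-1, from 38 and 26 counts, on the log2 scale. ITGB8, detected in SKNO-1, fell there with ATRA (log2 -2.70) and the combination (log2 -1.38).

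Of the 15 alpha subunits tested in U-937, 14 rose with the combination and none fell, where 33.1% of all genes were called higher and 32.2% lower. In SKNO-1 11 rose and 2 fell, ITGA4 (log2 -0.33) and ITGAE (log2 -0.46), where 24.7% of all genes were called higher and 22.0% lower. Some of these genes entered the fit only through treated groups, so a difference there was built in. In SKNO-1 these include ITGA11 (0 and 1 counts with DMSO), ITGA3 (3 and 1) and ITGAL (8 and 8). In U-937 ITGA2B, at 1 and 3 counts with DMSO, is another. ITGAM, the alpha subunit of the complement receptor CR3, had 154 and 135 counts with DMSO and 12443 and 11101 with the combination in U-937 (log2 6.32). In SKNO-1 it went from 15 and 12 counts to 3713 and 3798 (log2 8.27). ITGAL, the alpha subunit of LFA-1, rose by 3.79 in U-937, and ITGAX by 4.39 in U-937 and 5.58 in SKNO-1. ITGA6 and ITGA5, subunits of laminin and fibronectin receptors, rose with the combination by 3.65 and 1.39 in U-937 and by 0.64 and 1.39 in SKNO-1.

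The talins, which act beside kindlins on the same tails, parted in U-937 as FERMT3 and FERMT1 did. TLN1 (talin-1), the main talin of blood cells, had 48.79 and 51.23 TPM with DMSO, 86.74 and 73.57 with ATRA, 46.98 and 57.54 with Corin, and 101.95 and 82.40 with the combination. TLN2 (talin-2) had 14.40 and 12.64, 5.80 and 3.24, 10.12 and 11.64, and 1.63 and 1.16 TPM. The ATRA and combination libraries lie above the others for TLN1 and below them for TLN2.

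TLN1 rose in U-937 with ATRA (log2 0.88, SE 0.105, adjusted p = 3.33e-07) and the combination (log2 1.36, SE 0.106, adjusted p = 6.47e-11). TLN2 fell with ATRA (log2 -1.47, SE 0.114, adjusted p = 3.13e-10), with Corin (log2 -0.33, SE 0.111, adjusted p = 0.0481) and with the combination (log2 -2.89, SE 0.124, adjusted p = 1.24e-15). The combined effect on TLN2 went beyond additivity by -1.09 (SE 0.165, adjusted p = 2.20e-05). In SKNO-1 TLN2 was at 0.14 TPM or less in every library, and TLN1 fell with Corin (log2 -0.48, SE 0.0930, adjusted p = 0.00523) while the change with the combination did not pass (log2 -0.19, SE 0.0928, adjusted p = 0.129).

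**Figure D4:**
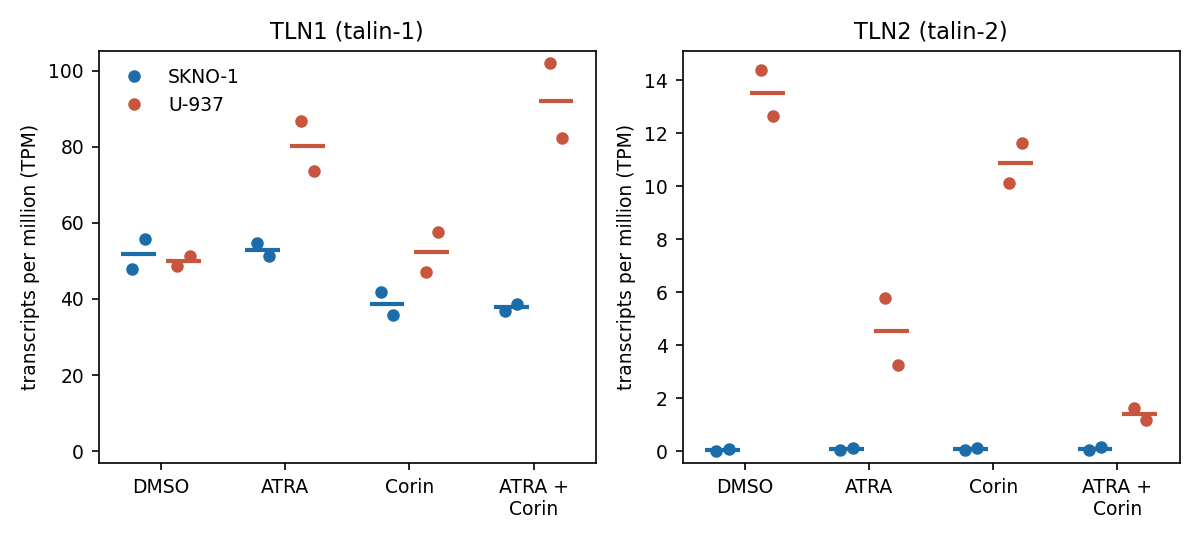
TPM of TLN1 (left) and TLN2 (right) in each library (points) with group means (lines), by treatment, in SKNO-1 (blue) and U-937 (red). In U-937 TLN1 is highest and TLN2 lowest with the combination, while TLN2 is near 0 in all SKNO-1 libraries.

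Of the talin and RAP1 arm, 6 of 9 tested genes rose in U-937 with the combination and TLN2 fell. Of all genes 33.1% were called higher there and 32.2% lower. APBB1IP (RIAM), which carries talin to RAP1 at the membrane, rose with ATRA (log2 2.11, adjusted p = 7.4e-13) and the combination (log2 2.41). SKAP2, an adaptor of myeloid integrin activation, rose by 1.18 and 2.25, RAP1B by 0.61 and 1.39, and RASSF5 (RAPL) by 0.83 and 1.45. With Corin alone none of the 9 rose, where 8.55% of all genes were called higher, and FYB1 (log2 -1.07) and TLN2 fell, where 4.40% were called lower. In SKNO-1 1 of 9 rose with the combination, RASSF5 (log2 1.39), and none fell, where 24.7% of all genes were called higher and 22.0% lower.

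Adaptors that act after kindlins moved in both directions. In U-937, 7 of 11 tested rose with the combination, where 33.1% of all genes were called higher and 32.2% lower. ILK, the pseudokinase that kindlins engage, rose by 1.17 (adjusted p = 6.7e-10), its partner LIMS1 (PINCH-1) by 1.72 and LPXN (leupaxin) by 1.96, while PARVB (beta-parvin) and RSU1, a PINCH-1 binder, fell (log2 -1.29 and -0.78). PXN (paxillin) did not pass there (log2 -0.25, adjusted p = 0.16). In SKNO-1, 8 of 13 rose with the combination, among them PXN (log2 1.28), VCL (vinculin, log2 0.72) and ILK (log2 0.39), and RSU1 fell (log2 -0.76). Of all genes 24.7% were called higher there and 22.0% lower. The 13 include FBLIM1, which entered the SKNO-1 fit only through the groups given Corin, so a difference there was built in. It had 3 and 0 counts with DMSO and 11 and 14 with the combination. Of the 6 tail binders that restrain activation, 4 rose and 1 fell with the combination in U-937 (median log2 0.62). In SKNO-1, 2 rose and 1 fell (median log2 0.29), and the 6 include FLNC, at 3 and 2 counts with DMSO. The shares over all genes are those given above for each line. ITGB1BP1 (ICAP-1) was the 1 that fell in both lines, by 0.97 in U-937 (adjusted p = 4.69e-08) and by 0.94 in SKNO-1 (adjusted p = 2.74e-05).

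**Figure D5:**
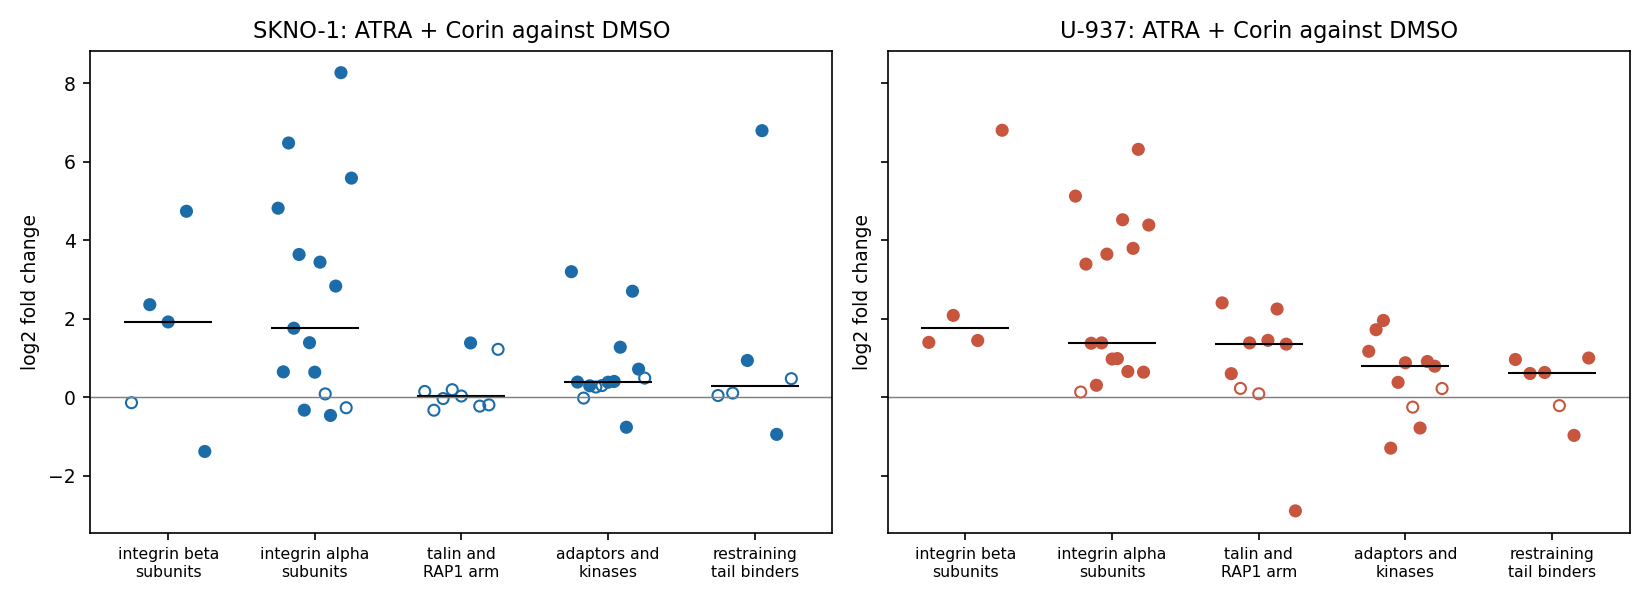
Log2 fold change of each tested gene of the 5 partner lists with the combination against DMSO, in SKNO-1 (left) and U-937 (right). Filled points had an adjusted p under 0.05, and lines mark list medians, which are 1.36 in U-937 and 0.03 in SKNO-1 for the talin and RAP1 arm.

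Genes of like pattern were ranked by the root mean square (RMS) difference of their centred log2 CPM from that of a kindlin over the 16 libraries, among the 12994 genes that averaged 1 CPM or more. This is a description, and the libraries compared share depth and GC differences. Nearest to FERMT1 were ALDH5A1 (RMS difference 0.433), GAL (0.523), MYC (0.550), FAM81A (0.590) and BCAT1 (0.660), against a median of 2.19 over all genes. The fall of FERMT1 in U-937 with the combination, by which it was chosen, weighs most in this distance, so near genes must share it. They need not share the rest: FAM81A in SKNO-1 went from 36.5 CPM with DMSO to 18.1 with ATRA. ALDH5A1, an enzyme of GABA breakdown, had group means of 30.9, 9.22, 18.5 and 0.834 CPM in U-937 with DMSO, ATRA, Corin and the combination. MYC, the proliferation-linked transcription factor, had 206, 37.8, 201 and 4.38 CPM. In SKNO-1 MYC went from 437 CPM with DMSO to 303 with the combination, and ALDH5A1 from 51.9 to 27.97. With a smaller prior count of 0.5, 4 of the 5 genes were again among the nearest.

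Nearest to FERMT3 were CAPN1 (0.188), CYTH2 (0.190), PRMT2 (0.195), TLN1 (0.196) and TIMP1 (0.198), against a median of 0.777. CAPN1 encodes calpain-1, a protease, and CYTH2 cytohesin-2, an ARF exchange factor. CAPN1 had 30.0, 56.0, 39.5 and 67.3 CPM in the 4 U-937 groups in the same order, and TLN1 289, 531, 306 and 736 CPM. All 5 genes were again the nearest with the smaller prior count.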

How the data were processed

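Per the labels' protocols, stranded total RNA libraries were read as pairs, whereas the names of the count files carry a mark for single-end reads, so the unit counted is uncertain. ERCC RNA had been added but has 0 entries in the count table, so values are relative to the other genes of a library. The authors deposited estimated counts and TPM per gene for each library and a table of all libraries (per the file headers, from RSEM). The submitters' processing notes name Trimmomatic, STAR, RSEM, deepTools, DESeq2 and hg38, with no versions. The annotation release and the use of strand in counting are not given in the sources used here. Deposited comparison tables hold the authors' log2 fold changes with p-values from DESeq2, and were used only where named.

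Estimated counts were rounded to whole numbers. Of the 48 kindlin counts, 1 was not whole. Genes were kept by edgeR's filterByExpr (edgeR 4.0.16, R 4.3.3; minimum count 10), which kept 17479 genes for SKNO-1, 17717 for U-937 and 19872 for the joint fit. Library totals were scaled by TMM. A quasi-likelihood model with robust dispersion was fitted to the 8 libraries of a line (4 residual degrees of freedom), or to all 16 for differences between lines. A gene is called where its p, adjusted over all genes by Benjamini-Hochberg, is under 0.05, and the script was tested on simulated data. Beyond additivity means the combination's log2 effect less the sum of both single effects. Gene positions are from GENCODE release 44, matched for 60306 genes by identifier.

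The kindlin genes and the partner lists were chosen with earlier results of these data known. Named genes are the kindlins, called members of the partner lists, and the 5 nearest in pattern (prior count 2) to each kindlin with a mean of at least 1 CPM. The alternatives tried were other scalings, no filter on low counts, DESeq2 1.42.0, fits of only the compared libraries, a replicate block, removal of GC trends and leaving out each library.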

Additional observations from a re-analysis of the deposited data

Results flagged for a closer look

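The 3 kindlin values below were marked because the effect of a treatment differed between the lines in a test of the difference itself (edgeR's quasi-likelihood test on all 16 libraries, adjusted over 19872 genes). Line and GM-CSF cannot be told apart in any of them. The effect of ATRA on FERMT3 was 1.23 higher on the log2 scale in U-937 than in SKNO-1 (SE 0.299, adjusted p = 0.0124). It was no longer called under 3 of 20 alternatives, with a range of 0.67 to 1.56 when single libraries were left out. The effect of the combination on FERMT3 was 1.51 higher (SE 0.299, adjusted p = 0.00151), with a range of 1.00 to 1.90 when single libraries were left out. The effect of the combination on FERMT2 was lower in U-937 by -3.03 (SE 1.15, adjusted p = 0.0421), on 18 counts or fewer per library. It rests on SKNO-1 counts through which alone FERMT2 passed the filter on low counts in that line, so its p is no support for a difference, and it was no longer called under 13 of 19 alternatives, with a range of -3.72 to -1.75 when single libraries were left out. FERMT1 was not tested in this way because it was chosen by its values in U-937.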

How the results depend on the processing

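Of the values computed under the alternatives, 285 of 288 for FERMT1 and 247 of 288 for FERMT3 kept their direction and their side of the threshold (for values without a test, moved by less than 1 SD). For untested values that SD comes from the same 2 libraries per group. Leaving out a library could hardly move a value past it, so the FERMT1 count says little about its untested values. The FERMT1 combination effect in U-937, which ranged from -7.27 to -6.10 without single libraries, counts as kept. FERMT1 kept its fall with Corin and with the combination in SKNO-1, and its higher level with Corin than with ATRA in U-937, under all 15 alternatives each, and FERMT3 kept its rise with ATRA and with the combination in U-937 under all 15. All alternatives were planned except removing GC trends in the comparisons between lines, which was added after seeing the data.

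The untested difference of FERMT1 between the lines with DMSO was -0.16 on library totals alone and -0.26 with GC trends removed. On library totals alone the median of all genes moved by -0.12 for the combination against DMSO and -0.13 for the combination against Corin in U-937, by 0.16 for the DMSO level between lines and by -0.16 for the combination effect between lines. With GC trends removed it moved by 0.14 for the combination against ATRA, 0.12 against Corin and 0.17 beyond additivity in U-937.

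For FERMT3 with GC trends removed, the DMSO level between lines was -0.28, and in SKNO-1 ATRA against DMSO was -0.35, the combination -0.66 against DMSO, -0.30 against ATRA and -0.14 against Corin, where the direction reversed. In U-937 the combination was 0.42 against ATRA and 0.63 beyond additivity. With no filter on low counts, the SKNO-1 values were -0.36 (ATRA), -0.40 (combination), 0.35 (combination against Corin), -0.39 (Corin against ATRA) and 0.71 (beyond additivity), all called. With only the 4 libraries compared they were -0.74 (Corin against DMSO, no longer called), 0.36 (combination against Corin, called) and -0.38 (Corin against ATRA, called). The causes were not tested.

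With single libraries left out, FERMT3 in SKNO-1 ranged from -0.74 to 0.16 (ATRA), -1.14 to -0.25 (Corin), -0.78 to 0.12 (combination), -0.15 to 0.078 (combination against ATRA), 0.28 to 0.43 (combination against Corin), -0.50 to -0.29 (Corin against ATRA) and 0.21 to 1.11 (beyond additivity). In U-937 it ranged from -0.15 to 0.027 (Corin) and 0.065 to 0.37 (combination against ATRA). Between lines it ranged from -0.67 to 0.23 (DMSO), 0.67 to 1.56 (ATRA effect) and 0.16 to 1.08 (Corin effect). FERMT1 beyond additivity in SKNO-1 ranged from -0.11 to 0.018.

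FERMT2, with few counts, changed direction only where no change had passed the threshold. In U-937 the combination against Corin was -0.081 on library totals, and against DMSO 0.13 with GC trends removed. Without single libraries the U-937 ranges were -1.497 to 0.47 (ATRA), -0.79 to 1.17 (Corin), -0.75 to 1.22 (combination), -0.10 to 0.19 (combination against Corin) and -0.42 to 1.54 (beyond additivity). They were -0.10 to 0.48 for the combination against Corin in SKNO-1 and -0.35 to 2.00 for the ATRA effect between lines. Fits that left a group with no FERMT2 count gave no finite value.

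The replicate block (library numbers as a term) gave -0.72 for FERMT3 with Corin in SKNO-1 (adjusted p = 0.0661), no longer called, and 0.032 for FERMT2 with the combination in U-937, and changed no other FERMT1 or FERMT3 call. The labels do not say that equal numbers mark a shared origin, and over the 6 pairs of groups in each line the deviations of equally numbered libraries correlated from -0.49 to 0.24 in SKNO-1 and from -0.45 to 0.42 in U-937.

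The count of genes called with ATRA in SKNO-1, 1181, was 239 with only the 4 libraries compared, 1963 with no filter, 2480 with GC trends removed and 562 to 5335 without single libraries. With Corin it was 6619 in SKNO-1 (3776 with only the 4 libraries, 3626 to 9520 without single ones) and 2293 in U-937 (1332 to 2688 without single ones). FERMT2 in every library, and FERMT1 in the U-937 combination libraries, rest on 25 counts or fewer, which limits their precision.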
